A study of Mus musculus with 18 samples.

Results

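Accessible chromatin of vehicle-treated haematopoietic stem cells (HSCs) from 16-week-old mice was compared with that of HSCs from untreated 8-week-old mice. The comparison takes 6 of the series' 18 samples, 4 vehicle samples and 2 untreated samples. They were grouped by their labels, and the comparison was chosen with earlier results of these data known. The 4 vehicle samples were deposited as 1 pooled peak list of 80100 regions and the 2 untreated samples as 1 pooled list of 40073 regions, after overlapping rows of each list were merged.

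The study profiled chromatin by ATAC-seq, in which the Tn5 transposase cuts open DNA, in HSCs and haematopoietic progenitors (HPCs) of mice from a Kmt2c conditional knockout colony. Kmt2c, also called Mll3, encodes a histone H3 lysine 4 methyltransferase. Vehicle HSCs were wild type and came from mice given 3 injections of phosphate-buffered saline, 3 weeks apart, and taken at 16 weeks. The 8-week HSCs were wild type with no treatment. The other lists were used here only to look regions up: HSCs from 16-week wild-type mice given 5-fluorouracil (5-FU) on the same schedule as the vehicle (4 samples), Kmt2c knockout HSCs at 8 weeks (2 samples), and 8-week HPCs that were Kmt2c knockout (2 samples) or wild type (4 samples). What drives deletion in the conditional allele, which cells were gated and the sex of the animals were not in the labels used here.

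HSCs renew themselves and give rise to all blood lineages, and most of them rest outside the cell cycle in adult marrow. Their identity is kept by transcription factors such as Hlf, Mecom, Meis1, Runx1 and Gata2, and with age HSCs gain surface and adhesion proteins such as P-selectin and lose part of their output of lymphoid cells. Immediate early genes such as Fos, Jun and Egr1 are transcribed within minutes of a stimulus, including the stress of taking cells out of tissue. Open chromatin at a promoter or enhancer marks a place where regulators can bind, and it is not itself a measure of transcription.

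Each group is a single pooled list, so the spread between animals is unknown and no test between the groups could be made. Age, the injections, the number of samples pooled and sequencing depth all differ between the 2 lists and cannot be told apart in any value below. Read depth is unknown, since the lists hold no read counts. Intervals are 95% Wilson intervals over regions or genes and cover counting error only. Of the 10 genes used to check the HSC label, all 10 carried a region within 1 kb of a gene end in the vehicle list, and 7 did in the 8-week list, where Slamf1, Ly6a and Tek had none. At the genes that mark other cells, vehicle and 8-week regions lay at a gene end of 7 and 3 of 15 T and NK cell genes, 6 and 3 of 12 B cell genes, 5 and 5 of 16 neutrophil and macrophage genes, 8 and 4 of 11 mast cell, basophil and eosinophil genes, and 10 and 4 of 15 stroma and endothelium genes. Over all 21887 protein-coding genes the shares with an end region were 65.3% in the vehicle list and 51.7% in the 8-week list. The part of other cells in the results was not tested.

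The vehicle list was longer, wider and reached further into weak signal. It covered 55.9 Mb, against 21.2 Mb in the 8-week list. The median vehicle region was 635 bp wide and the median 8-week region 483 bp. Regions wider than 2 kb numbered 385 in the vehicle list and 5 in the 8-week list. The authors' fold enrichment over background had a median of 10.2 in the vehicle list and 14.6 in the 8-week list, and it was below 5 in 14.4% of vehicle regions against 1.19% of 8-week regions. The median −log10 p was 151 in the vehicle list and 54.7 in the 8-week list. A single summit was called in 42.7% of vehicle regions and 68.9% of 8-week regions. The other 16-week list, from 5-FU HSCs, had 71363 regions with a median width of 640 bp, while the 3 other 8-week lists had 48620 to 65832 regions with median widths of 462 to 484 bp.

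Nearly every 8-week region was also a vehicle region, and the reverse held only for strong vehicle regions. Of the 80100 vehicle regions, 41506 overlapped no 8-week region by even 1 bp (51.8%, interval 51.5% to 52.2%). Of the 40073 8-week regions, 286 overlapped no vehicle region (0.714%, interval 0.636% to 0.801%). That share depends on the overlap rule, and was 6.70% when only 200 bp windows around the highest summits were compared. For scale, the share of a list absent from the vehicle list was 2.01% for knockout HSCs, 5.61% for 5-FU HSCs, 11.6% for knockout HPCs and 15.2% for wild-type HPCs. When the vehicle list was cut into 10 equal steps of −log10 p, 1.30% of the weakest step were in the 8-week list. That share was 31.4% in step 5, 76.8% in step 7 and 99.4% in step 9, and in the strongest step 8009 of 8010 regions were in the 8-week list. In the other direction, 96.4% of the weakest of 10 such steps of 8-week regions were in the vehicle list. At the same number of regions the lists came close to each other. Among the strongest 40073 of each list by −log10 p, 6277 vehicle regions had no 8-week counterpart (15.7%, interval 15.3% to 16.0%) and 5108 8-week regions had no vehicle counterpart (12.7%, interval 12.4% to 13.1%). Of those 5108, 4822 were in the whole vehicle list, further down its ranking.

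**Figure D1:**
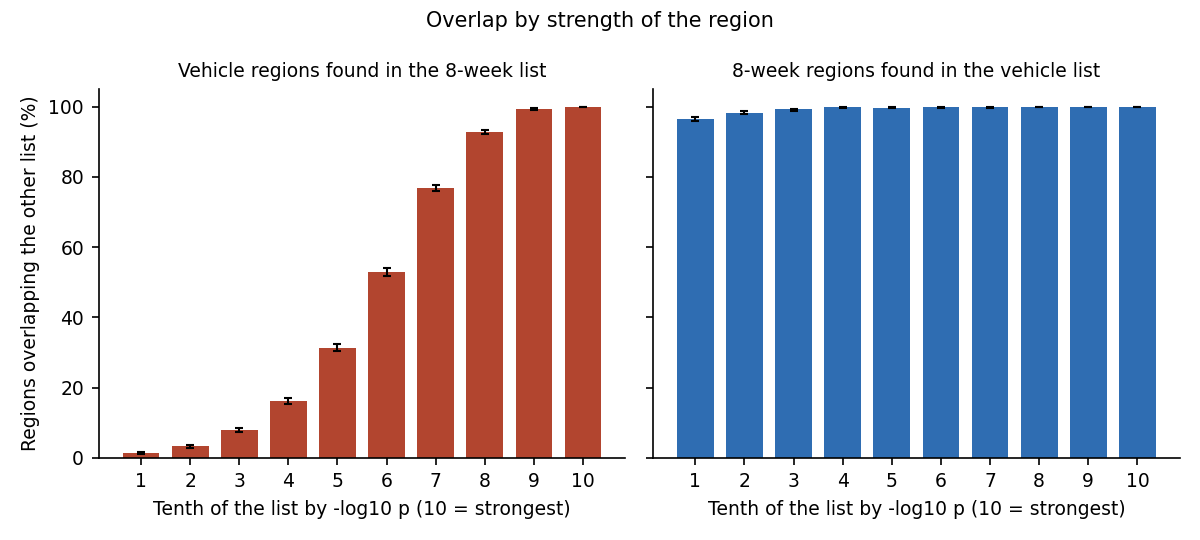
Share of vehicle regions found in the 8-week list (left) and of 8-week regions found in the vehicle list (right), in percent, for each of 10 equal steps of the list ordered by the authors' −log10 p; bars are shares and whiskers 95% Wilson intervals over regions. The vehicle shares run from 1.30% in the weakest step to 99.99% in the strongest, whereas the 8-week shares lie between 96.4% and 99.95% throughout.

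The regions held by both lists lay at nearby summits with a similar median enrichment, and differed in width. There were 37405 regions that paired 1 to 1, 93.3% of the 8-week list. Their summits lay a median of 9 bp apart, and 93.9% lay within 50 bp. The vehicle region of a pair was 774 bp wide in the median and the 8-week region 486 bp, with a median ratio of 1.48 and the vehicle region the wider of the pair in 97.7%. It enclosed the whole 8-week region in 91.5% of pairs. The fold enrichment was 16.2 in vehicle and 14.99 in 8-week cells in the median, with a median ratio of 1.01 (quartiles 0.878 and 1.18), and was higher in vehicle in 52.4% of pairs. The −log10 p was 7.01 times as large in vehicle in the median. The same measures were taken between lists that match in both age and number of samples pooled. The width ratio was 0.984 for 5-FU over vehicle HSCs and 1.03 for knockout over wild-type 8-week HSCs. Pairs at gene ends were 1031 bp wide in vehicle and 651 bp in 8-week cells, and pairs away from gene ends 702 bp and 447 bp. Spearman's rank correlation between the lists over the pairs was 0.880 for −log10 p and 0.851 for fold enrichment, given as a description across regions that share their libraries.

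**Figure D2:**
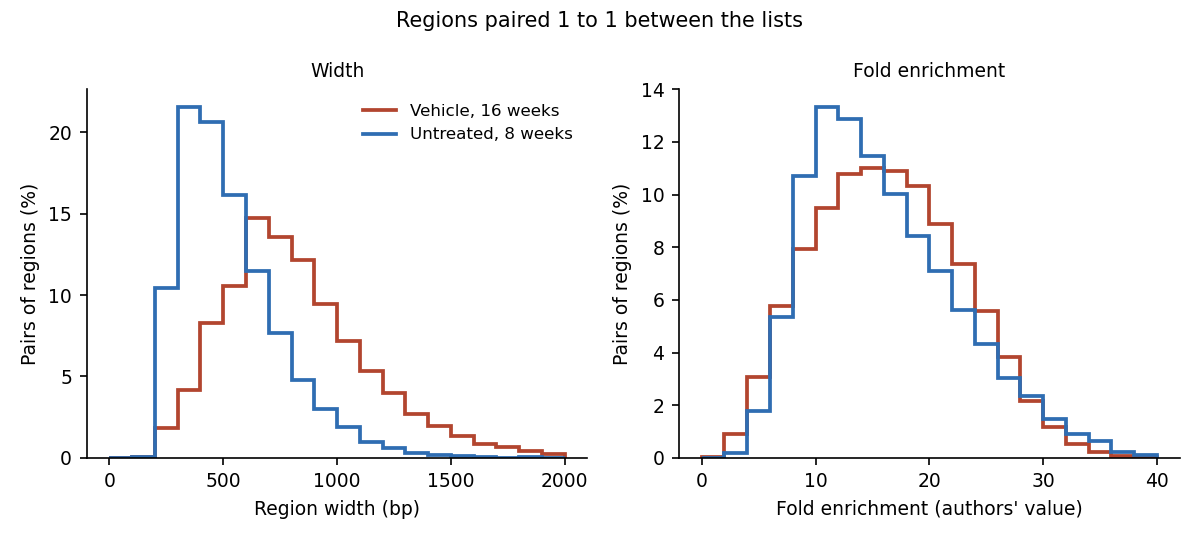
Distribution of width (left, bp) and of the authors' fold enrichment (right) over the 37405 regions paired 1 to 1, for vehicle HSCs at 16 weeks and untreated HSCs at 8 weeks; the vertical axis is the percent of pairs in each bin. The vehicle widths sit to the right of the 8-week widths (medians 774 bp and 486 bp), while the fold enrichments cover nearly the same range (medians 16.2 and 14.99).

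A small part of the pairs changed place in the ranking. Ranked by −log10 p among the pairs, 951 regions stood more than 30 percentile points higher in vehicle (2.54%) and 814 stood more than 30 points lower (2.18%), and 58.9% were within 10 points. The region inside Dynlt1b, which encodes a dynein light chain, had a fold enrichment of 25.03 in vehicle and 9.67 in 8-week HSCs. The region beside Th, which encodes the enzyme that starts catecholamine synthesis, had 7.32 in vehicle and 25.4 in 8-week HSCs. These 2 were singled out after their values were seen, and Dynlt1b has near-identical neighbouring copies, so reads there may be shared.

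At Fos and at some other immediate early genes, the lists differed in where along the gene the open region lay. The loci described here were picked after they had been seen. At Fos, which encodes a subunit of the AP-1 transcription factor, the vehicle list had a region that ran from 457 bp before the gene's start to 1443 bp after it, with a fold enrichment of 8.54, at the 84.1 percentile of its list by −log10 p. The 8-week list had no region there. It had instead a region from 3358 to 5253 bp after the start, beginning inside the last bases of the 3385 bp gene and running past its 3′ end, with a fold enrichment of 3.48 at the 15.4 percentile. The vehicle list had none at that place. Both lists shared a region about 5 kb before the gene, with fold enrichments of 13.7 in vehicle and 17.8 in 8-week HSCs. Among the other HSC lists, 5-FU HSCs had the start region (fold enrichment 8.31) and no 3′ region, and knockout 8-week HSCs had the 3′ region (3.27) and no start region. The 8-week HPC lists had the start region, with 6.40 in knockout and 5.79 in wild-type HPCs, and no 3′ region, so the start of Fos was not bare in every 8-week list.

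Egr1, a zinc finger factor of the same early response, showed a like pattern, with a region at one end of the gene in both lists and at the other end in the 8-week list alone. The gene table gives no strand for Egr1, so positions are counted from its lower-coordinate end. The vehicle region there ran from 1390 bp before to 498 bp after that end, with a fold enrichment of 8.19 at the 97.2 percentile. The 8-week region ran from 451 bp before to 159 bp after it, with 3.29 at the 54.9 percentile. A further 8-week region lay 3654 to 5083 bp from that end, over the far end of the 3750 bp gene, with a fold enrichment of 4.42 at the 72.9 percentile. It was also in the knockout HSC list (4.01) and in none of the vehicle, 5-FU and HPC lists.

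Jun and Jund differed along the same lines, less completely, and Junb did not share this difference past its 3′ end. Junb carried regions past its 3′ end in both lists, the stronger with fold enrichments of 6.94 in vehicle and 7.31 in 8-week HSCs. At Jun, the main partner of Fos in AP-1, the vehicle start region ran from 1331 bp before to 532 bp after the start with a fold enrichment of 6.67, and the 8-week start region from 460 bp before to 178 bp after it with 4.62. The region at the 3′ end of Jun was 245 bp wide with a fold enrichment of 1.55 in vehicle, against 1435 bp and 3.71 in 8-week HSCs. At Jund, vehicle regions lay 614 to 2584 bp and 2741 to 4174 bp from the start, the stronger with a fold enrichment of 4.95. In the 8-week list they lay 3530 to 4294 bp and 4359 to 6737 bp from the start, beyond the 2878 bp gene, with 3.02 and 3.33. The first of these overlapped a vehicle region, and the second was absent from the vehicle and 5-FU lists, and wild-type HPCs had a region there too, with 2.57. At Fosb, a close relative of Fos, the start carried a vehicle region with a fold enrichment of 5.75 and no 8-week region, and the 8-week region from 7665 to 8525 bp past the start, with 3.20, met only a vehicle region 169 bp wide with 2.80. Nr4a1, an orphan nuclear receptor induced early, had an 8-week region 15298 to 16258 bp from its start with a fold enrichment of 3.37 that only the knockout HSC list shared (3.56).

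**Figure D3:**
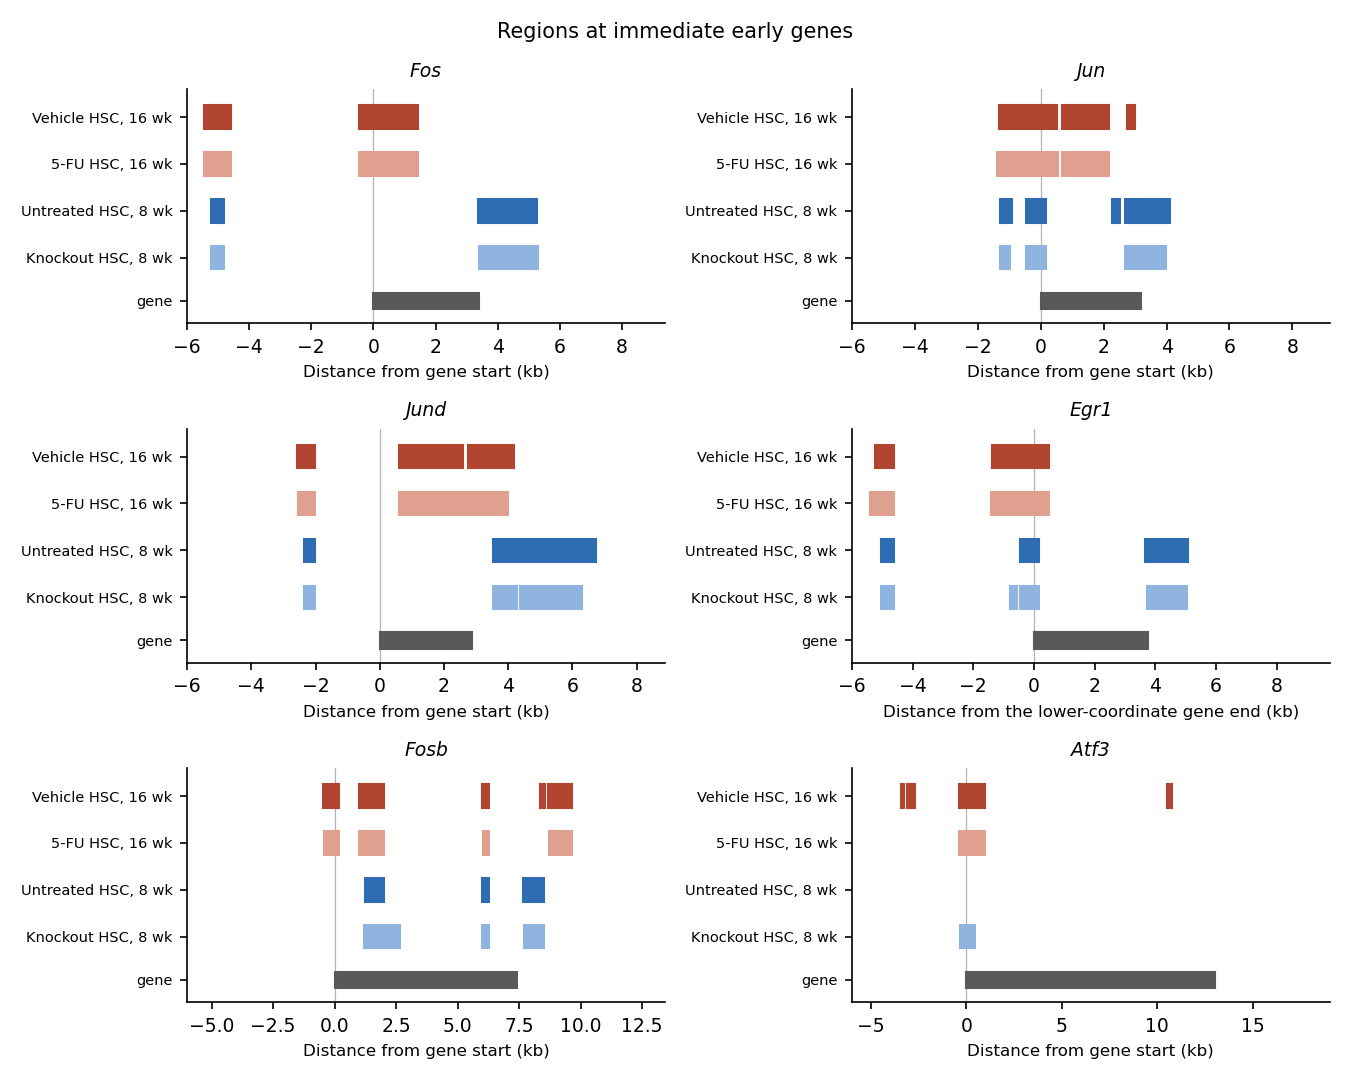
Regions at 6 immediate early genes, drawn to scale by distance in kb from the gene start (for Egr1, from its lower-coordinate end); coloured boxes are regions of 4 HSC lists, one row per list, and the grey box is the gene. At Fos the 16-week lists have a box over the start and the 8-week lists a box over the 3′ end.

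The position past the 3′ end was counted over all genes whose strand is known. In a window from 500 bp before to 3000 bp after the 3′ end, leaving out regions within 1 kb of any gene's start, the strongest 40073 8-week regions gave 214 of 17492 genes a region with no vehicle counterpart (1.22%), and the vehicle regions gave 257 genes a region with no 8-week counterpart (1.47%). Of the 20 immediate early genes in this count, 2 were among the 214, Fos and Jun, and none among the 257. Btg2, Zfp36, Klf2 and Junb had a region in this window in both lists. With all regions of both lists, 9 genes had such an 8-week region (0.0515%), and Fos was the only immediate early gene among them, while 1543 genes had such a vehicle region (8.82%), with Klf6 the only immediate early gene. The regions past Jund, Fosb and Egr1 lie within 1 kb of another gene's start, or of an end of a gene with no known strand, and did not enter this count. The scan was added after these loci had been seen.

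Over the whole list of 25 immediate early genes, more genes held 8-week-only regions than vehicle-only ones at equal number. Each region was given to the nearest gene within 100 kb. Over all 15128 genes with a region, 21.7% had more vehicle-only than 8-week-only regions and 17.1% had more 8-week-only regions. Of the 25 immediate early genes, 4 had more vehicle-only regions (16.0%) and 11 had more 8-week-only regions (44.0%). The median difference per gene was 0 in the list and 0 over all genes. In total 14 of the list's 96 vehicle regions were vehicle-only and 25 of its 110 8-week regions were 8-week-only, against 15.4% and 12.6% of regions over all genes. Ranking by fold enrichment gave 2 and 20 of the 25 genes, against 25.7% and 22.2% of all genes. With all regions of both lists, 21 of the 25 genes had more vehicle-only regions and none had more 8-week-only ones. The members furthest apart on the 8-week side were Ier5, with 3 vehicle-only and 5 8-week-only regions, Jun with 1 and 3, and Ier3, Nr4a1 and Dusp1 with 0 and 2 each. On the vehicle side it was Ier2, with 2 and 0.

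The start regions of Atf3 and Hspa1b were in the vehicle list and not in the 8-week list. Atf3, a stress-induced factor of the ATF/CREB family, had a vehicle region from 379 bp before to 996 bp after its start with a fold enrichment of 7.59, and knockout HSCs (6.44), knockout HPCs (5.83) and wild-type HPCs (7.45) had a region there too. Hspa1b, an inducible 70 kDa heat shock protein, had a vehicle region over its start with a fold enrichment of 14.7, also present in 5-FU (14.5) and knockout HSCs (10.1). Its neighbour Hspa1a carried a start region in both, with 16.2 in vehicle and 18.01 in 8-week HSCs. The promoter windows of Hspa1b and Hspa1a are identical at 296 of 300 bases, so reads can be shared between these copies and the difference at Hspa1b is uncertain. The 4 windows are printed here because they are the starts at which the lists part, with Hspa1a as the shared copy. Each is the 250 bases before and 50 after the start, from RefSeq on GRCm38.p6, written 5′ to 3′ on the gene's strand. Capitals mark matches on either strand to the cyclic AMP response half-site TGACGT, the AP-1 site TGANTCA, the TATA box TATAAA, the CCAAT box CCAAT, the GATA site AGATAA, the ETS site CCGGAAG and the heat shock unit TTCNNGAA, none of which overlapped another in the windows printed.
Fos, chr12:85473640-85473939, plus strand: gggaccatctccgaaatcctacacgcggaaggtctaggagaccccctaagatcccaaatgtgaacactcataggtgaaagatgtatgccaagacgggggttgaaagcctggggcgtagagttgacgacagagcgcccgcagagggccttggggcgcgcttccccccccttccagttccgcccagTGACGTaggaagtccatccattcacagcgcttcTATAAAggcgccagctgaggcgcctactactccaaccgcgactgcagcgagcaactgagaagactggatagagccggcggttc
Atf3, chr1:191183284-191183583, minus strand: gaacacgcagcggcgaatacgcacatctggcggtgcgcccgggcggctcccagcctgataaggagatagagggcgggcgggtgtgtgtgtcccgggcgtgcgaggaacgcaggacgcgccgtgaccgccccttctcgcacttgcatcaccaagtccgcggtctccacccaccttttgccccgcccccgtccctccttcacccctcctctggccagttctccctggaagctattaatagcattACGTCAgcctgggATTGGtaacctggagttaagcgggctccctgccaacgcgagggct
Hspa1b, chr17:34959189-34959488, minus strand: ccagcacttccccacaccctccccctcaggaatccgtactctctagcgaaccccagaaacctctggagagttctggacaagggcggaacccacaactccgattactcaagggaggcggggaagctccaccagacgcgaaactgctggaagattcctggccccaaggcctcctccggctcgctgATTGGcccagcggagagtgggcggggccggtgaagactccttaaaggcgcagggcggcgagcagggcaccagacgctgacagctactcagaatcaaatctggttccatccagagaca
Hspa1a, chr17:34972107-34972406, minus strand: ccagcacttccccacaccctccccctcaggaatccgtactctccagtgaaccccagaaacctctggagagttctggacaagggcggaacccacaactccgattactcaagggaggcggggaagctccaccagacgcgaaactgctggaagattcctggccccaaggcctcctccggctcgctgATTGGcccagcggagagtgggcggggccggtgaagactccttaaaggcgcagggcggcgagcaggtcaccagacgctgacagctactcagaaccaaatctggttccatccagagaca
The Fos window holds the cyclic AMP half-site and the TATA box, the Atf3 window a cyclic AMP half-site and a CCAAT box, and both heat shock windows a CCAAT box. Over all 21263 promoter windows, the cyclic AMP half-site was found in 8.49%, the TATA box in 12.6% and the CCAAT box in 38.2%. A match is a string of letters and does not show that a factor binds.

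Promoters covered in only one of the lists held the ETS site less often than those covered in both, and had a lower median CpG count. The table of RefSeq windows held 17492 of the 21887 genes (79.9%). At equal number of regions, 1287 windows were covered in the vehicle list alone, 253 in the 8-week list alone, 9507 in both and 10216 in neither. The median number of CpG dinucleotides per 300-base window was 19 in vehicle-only, 15 in 8-week-only, 22 in shared and 4 in uncovered windows, with upper quartiles of 30, 25, 29 and 9. The ETS site was in 10.8% of vehicle-only windows (interval 9.22% to 12.6%) and 7.91% of 8-week-only windows (interval 5.18% to 11.9%), against 20.6% of shared windows. The CCAAT box was in 26.0% of vehicle-only and 28.9% of 8-week-only windows, against 40.96% of shared windows. The AP-1 site was in 4.27% of vehicle-only windows (interval 3.30% to 5.52%) and 10.7% of 8-week-only windows (interval 7.44% to 15.1%), against 4.10% of shared and 9.93% of uncovered windows. With all regions of both lists, 3025 windows were covered by the vehicle list alone and 7 by the 8-week list alone.

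**Figure D4:**
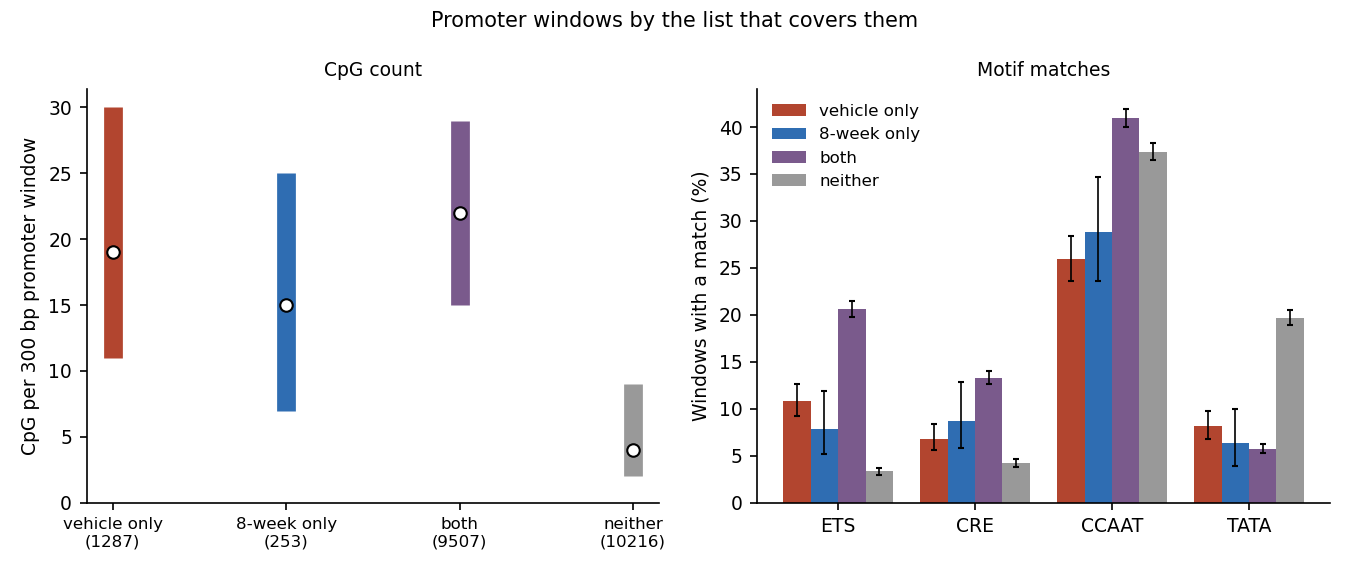
CpG dinucleotides per 300-base promoter window (left; point is the median, bar the quartiles) and percent of windows with a match to 4 motifs (right; whiskers are 95% Wilson intervals), for windows covered at equal number in the vehicle list only, the 8-week list only, both or neither, with the number of windows in brackets. Windows covered in both lists have the most CpG (median 22) and the most ETS matches (20.6%).

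At equal number by −log10 p, genes of stem cell identity had differences in both directions, and by fold enrichment more of them fell on the 8-week side. Mecom, a zinc finger factor needed for HSC maintenance, had 49 vehicle regions and 16 8-week regions in its neighbourhood, and at equal number 4 vehicle-only regions and 1 8-week-only region. Kit, the receptor for stem cell factor, had 3 and 1, Cd34, a surface sialomucin, 3 and 0, and Gata2 2 and 0. Hlf had 0 vehicle-only and 2 8-week-only regions, Erg, an ETS factor, 0 and 3, Msi2, an RNA-binding protein, 1 and 4, and Runx1 2 and 3. Meis1, a homeobox factor, had 1 and 1, and Procr, a surface receptor used to sort HSCs, and Flt3, a cytokine receptor of early lymphoid and myeloid progenitors, had none in either list. Over the 38 genes of the stem cell list with a region, 12 had more vehicle-only regions (31.6%, against 21.7% of all genes). In 9 there were more 8-week-only regions (23.7%, against 17.1%). Counted by region the list was nearer to all genes. Of its 228 vehicle regions 37 were vehicle-only (16.2%, against 15.4% over all genes). Of its 233 8-week regions 33 were 8-week-only (14.2%, against 12.6%). Ranking by fold enrichment gave 8 and 21 of 39 genes, against 25.7% and 22.2% of all genes. By fold Msi2 had 0 vehicle-only and 10 8-week-only regions, Fli1, an ETS factor, 1 and 8, Erg 0 and 7, Meis1 0 and 4 and Flt3 0 and 2. Mecom had 9 and 4 by fold, and Gata2 turned to 2 more 8-week-only than vehicle-only regions.

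Of this pair of lists, the vehicle list alone covered the starts of Gata2 and Procr, while both covered that of Hlf. Of the 40 genes of the stem cell list, 10 had an end region in the vehicle list alone, against 13.7% of all genes, and 29 in both. At Gata2 the vehicle list had a region over the start with a fold enrichment of 3.43, found again in 5-FU HSCs (3.49) and in no 8-week list. Both lists had the region 9 kb into the gene, with fold enrichments of 8.99 in vehicle and 9.85 in 8-week HSCs. At Procr the start region was in vehicle HSCs (7.10) and not in the untreated 8-week list, but it was in all 4 other lists, with 7.91 in knockout HSCs, while the stronger region just past the gene had 15.2 in vehicle and 19.4 in 8-week HSCs. At Hlf the start region had 10.7 in vehicle and 10.04 in 8-week HSCs.

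Among genes known to gain expression in old HSCs, more had vehicle-only regions than 8-week-only ones. Of 23 genes of the ageing list with a region, 9 had more vehicle-only regions (39.1%, against 21.7% of all genes) and 4 had more 8-week-only regions (17.4%, against 17.1%). By fold enrichment the counts were 9 and 5 of 24 (37.5% and 20.8%, against 25.7% and 22.2% of all genes). The median difference was 0 in the list and 0 over all genes. Counted by region, 16 of the list's 70 vehicle regions were vehicle-only (22.9%, against 15.4% over all genes). Of its 64 8-week regions 10 were 8-week-only (15.6%, against 12.6%). Selp, which encodes P-selectin, had 4 vehicle regions and 2 8-week regions at equal number, and 5 and 2 in the full lists. Its start was covered in vehicle HSCs with a fold enrichment of 12.7, in 5-FU HSCs with 9.40, and in knockout and wild-type HPCs with 10.6 and 12.02, and was in neither 8-week HSC list. The Selp region with the highest −log10 p, inside the gene, had 21.6 in vehicle and 24.0 in 8-week HSCs. Vwf, the clotting factor carried by platelets, had 7 and 5 regions at equal number, and 11 and 5 in the full lists, with fold enrichments at its lower-coordinate end of 12.1 in vehicle and 10.1 in 8-week HSCs. Aldh1a1, a retinaldehyde dehydrogenase, had 3 and 1 regions at equal number, and 6 and 1 in the full lists. The vehicle region over its inner start had a fold enrichment of 19.2 and was found in 5-FU (20.5) and knockout HSCs (15.3) but not in the 8-week list. The early genes Nr4a1, with 0 vehicle-only and 2 8-week-only regions, and Egr1, with 0 and 1, are also members of this list. The Selp start and the inner Aldh1a1 start are printed because the vehicle list covered them and the 8-week list did not, with capitals as above.
Selp, chr1:164115014-164115313, plus strand: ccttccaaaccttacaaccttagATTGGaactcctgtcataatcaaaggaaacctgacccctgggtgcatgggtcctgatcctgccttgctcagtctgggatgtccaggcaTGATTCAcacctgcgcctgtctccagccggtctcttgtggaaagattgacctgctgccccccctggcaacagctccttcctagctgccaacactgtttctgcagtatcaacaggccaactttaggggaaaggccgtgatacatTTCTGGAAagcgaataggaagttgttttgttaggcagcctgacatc
Aldh1a1, chr19:20601718-20602017, plus strand: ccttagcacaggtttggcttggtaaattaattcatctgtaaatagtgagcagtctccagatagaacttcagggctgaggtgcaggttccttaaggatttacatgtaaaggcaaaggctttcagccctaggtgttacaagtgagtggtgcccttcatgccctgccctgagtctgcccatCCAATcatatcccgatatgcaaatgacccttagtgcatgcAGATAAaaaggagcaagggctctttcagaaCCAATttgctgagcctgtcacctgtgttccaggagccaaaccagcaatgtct
The Selp window holds an AP-1 site, a CCAAT box and a heat shock unit in the order TTCNNGAA, with 4 CpG dinucleotides. The Aldh1a1 window holds a GATA site and CCAAT boxes, with 1 CpG.

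More lymphoid genes had a surplus of vehicle-only than of 8-week-only regions at equal number by −log10 p, and equally many by fold enrichment. Of the 22 genes of the lymphoid list with a region, 12 had more vehicle-only regions (54.5%, against 21.7% of all genes). In 3 there were more 8-week-only regions (13.6%, against 17.1%), and the median difference was 1. Counted by region, 18 of the list's 122 vehicle regions were vehicle-only (14.8%), against 15.4% over all genes. Of its 112 8-week regions 7 were 8-week-only (6.25%), against 12.6% over all genes. Notch2, a receptor for cell-contact signals, had 3 vehicle-only and 0 8-week-only regions, and Lef1, a factor of T and B cell development, 2 and 0. Cd2, a T cell adhesion molecule, had 0 and 2. By fold enrichment the counts were 8 and 8 of 21 (38.1% each, against 25.7% and 22.2% of all genes). Notch2 turned to 1 more 8-week-only region. Among myeloid genes 7 had more vehicle-only and 3 more 8-week-only regions of 22 (31.8% and 13.6%, against the same 21.7% and 17.1%), led by Itgam, the alpha chain of Mac-1, with 4 and 1. By fold enrichment the myeloid counts were 3 and 8 (13.6% and 36.4%, against 25.7% and 22.2% of all genes). Among erythroid and megakaryocyte genes the counts were 5 and 1 of 20 (25% and 5%), and by fold enrichment 4 and 4 (20% each). Counted by region, 17.9% of vehicle and 11.25% of 8-week regions of the myeloid genes were in 1 list only. For the erythroid and megakaryocyte genes these shares were 12.1% and 3.23%.

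Interferon and antigen presentation genes gave 7 with more vehicle-only and 4 with more 8-week-only regions of 26 (26.9% and 15.4%, against 21.7% and 17.1% of all genes), and by fold enrichment 4 and 7. Ifngr1, a chain of the interferon gamma receptor, had 2 and 0. Inflammatory signalling genes gave 6 and 2 of 26, and by fold enrichment 5 and 9. Cell cycle genes gave 5 and 6 of 25, and by fold enrichment 4 and 11. By −log10 p there were 0 and 3 at Mki67, a marker of dividing cells, and 2 and 0 at Cdk6, a kinase that drives exit from quiescence. Housekeeping genes gave 3 and 3 of 20, and by fold enrichment 2 and 7. The shares by fold enrichment over all genes were 25.7% and 22.2%. For the genes that mark other cells the counts were 4 and 2 of 8 for T and NK cells, 2 and 3 of 7 for B cells, 0 and 3 of 10 for neutrophils and macrophages, 4 and 1 of 7 for mast cells, basophils and eosinophils, and 5 and 6 of 14 for stroma and endothelium. In the stroma and endothelium list, Cdh5, the adhesion protein of endothelial junctions, had 5 vehicle-only regions and 1 8-week-only region. In the same list Pecam1 had 0 and 2, and Flt1 1 and 0.

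**Figure D5:**
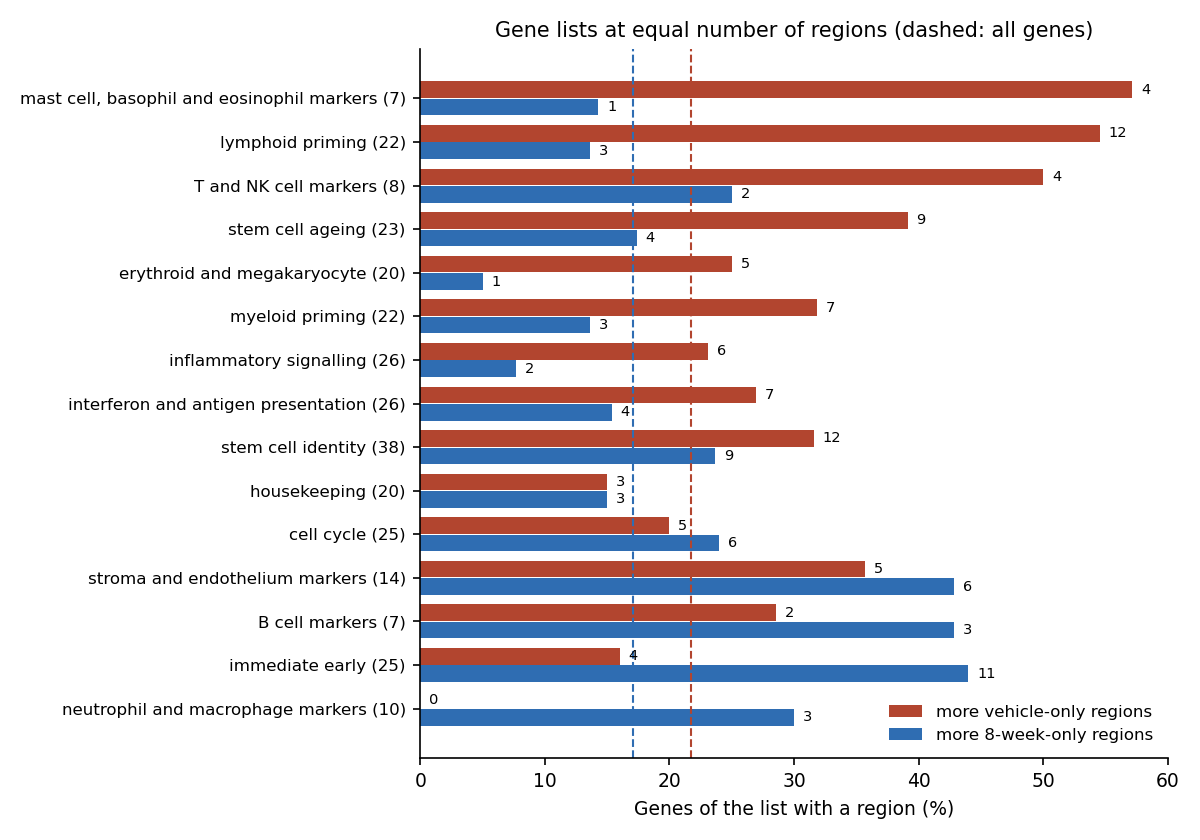
Percent of the genes of each list, among those with a region (number in brackets), that had more vehicle-only or more 8-week-only regions at equal number; figures at the bars are genes, and dashed lines are the shares over all genes (21.7% and 17.1%). Immediate early genes have the longest 8-week bar (44.0%), close to B cell and to stroma and endothelium markers (42.9% each). Mast cell, basophil and eosinophil markers have the longest vehicle bar (57.1%), followed by lymphoid genes (54.5%).

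The 20 genes with the largest differences at equal number had a median length of 311 kb, against 17.2 kb over all genes, although Hes1 is 2.44 kb long. Arhgap26, a GTPase-activating protein, had 9 vehicle-only and 2 8-week-only regions. Zbtb20, a zinc finger repressor, had 7 and 1, and Pkp4, a junction protein, 6 and 0. Galnt10, Smyd3 and Tbc1d16 had 5 and 0 each, Rreb1 and Trappc9 6 and 2 each, and Dip2c 5 and 1. Ranked by fold enrichment, the surplus of vehicle-only regions was 1 each at Tbc1d16, Rreb1 and Trappc9. On the 8-week side Tshz2, a zinc finger factor, had 0 vehicle-only and 6 8-week-only regions, Maml2, a coactivator of Notch, 2 and 7, and Chst11, a chondroitin sulphotransferase, 1 and 6. Hes1, a repressor downstream of Notch, had 2 and 6, as had Agap1, while Zfp469 had 0 and 5, Ank2 1 and 5, and Cradd, Dlgap2 and Dysf 0 and 4 each. Ranked by fold enrichment, Dlgap2 had 1 and 1, Cradd 1 and 2, and Ank2 4 and 3.

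At gene ends the difference ran almost wholly to the vehicle list. A region lay within 1 kb of an end of 3000 genes in the vehicle list alone (13.7%) and of 13 genes in the 8-week list alone (0.0594%). At equal number the counts were 1024 and 424. For 198 of the 3000 genes the vehicle region overlapped an 8-week region that lay more than 1 kb from either gene end, inside the gene or outside it. This holds for the 5 with the highest −log10 p. At Kat6b, a histone acetyltransferase, the regions were 1168 bp wide in vehicle and 730 bp in 8-week HSCs with fold enrichments of 16.3 and 17.8, and at Stat5b, a cytokine signal transducer, 1136 bp and 526 bp with 21.1 and 28.2. Mrpl18, Tmprss9 and Clec11a were of the same kind. Others of the 3000 genes had an end region in vehicle that overlapped no 8-week region. Among these the highest −log10 p was at Wwtr1, a coactivator of the Hippo pathway, with a fold enrichment of 16.1. Dock11 (16.1) and Tmed2 (13.6) followed, and these genes were named after their values were seen. All 3 regions were also in the knockout 8-week HSC list. On the 8-week side, Zfp932, Gm15448, Csf2rb2, Gm4070 and Slc38a3 led, with fold enrichments of 30.5, 25.2, 18.1, 13.0 and 10.5. The Zfp932 and Gm15448 regions were in all 4 8-week lists and in neither 16-week list. The Csf2rb2 region was in every list but vehicle, and the Gm4070 region was in no other list. At Slc38a3 only the 1 kb limit parted the lists. In the full lists all 3 8-week regions given to this gene overlapped a vehicle region. Zfp932 and Gm15448 belong to families with close copies, so reads at these genes may be shared. The start window of Csf2rb2, the beta chain specific to the interleukin-3 receptor in mice, is printed as the cytokine receptor start that the 8-week list alone covered of this pair of lists, and none of the 7 motifs was found in it.
Csf2rb2, chr15:78305672-78305971, minus strand: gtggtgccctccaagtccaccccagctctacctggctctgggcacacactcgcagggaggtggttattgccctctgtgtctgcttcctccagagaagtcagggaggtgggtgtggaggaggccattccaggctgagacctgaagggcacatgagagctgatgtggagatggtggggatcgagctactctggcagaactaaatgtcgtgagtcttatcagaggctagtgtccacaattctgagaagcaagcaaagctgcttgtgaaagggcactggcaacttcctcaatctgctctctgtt

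The 286 8-week regions missing from the vehicle list were mostly weak, with a median at the 9.29 percentile of their list by −log10 p, and a few were strong. By −log10 p the strongest 8-week region of all, at chr1:24612996-24613238, 25074 bp outside Col19a1, had a fold enrichment of 31.0 and was absent from the vehicle list. It ranked first by −log10 p in all 4 8-week lists and 9884th in the 5-FU list, with 18.9. This stretch of chromosome 1 is known as a nuclear copy of mitochondrial DNA, where the origin of a read is uncertain, and the part of mitochondrial reads was not tested. Next was a region 221 bp wide inside Zfp804b with a fold enrichment of 43.3, number 4 by fold in the 8-week list. It had 43.3 in knockout HSCs, 42.9 in knockout HPCs and 48.4 in wild-type HPCs, and was in neither 16-week list. The regions at Zfp932 (30.5), Nedd4l (25.4) and 93085 bp from Gm40514 (29.0) showed the same pattern.

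In all, 41 regions were in all 4 8-week lists and in neither 16-week list, 0.132% of the 31123 regions that all 4 8-week lists shared. Their median fold enrichment was 12.4 in the 8-week HSC list. A gene end was near 3 of the 41, against 26 of the 286 8-week-only regions (9.09%) and 28.2% of all regions of that list. Chromosome 9 held 9 of the 41, against 1765 of the 31123. Chromosome 11 held 4 of the 41, against 2495 of the 31123, and these 4 lay within 1.56 Mb at Sfi1, Osbp2, Hormad2 and Ascc2. None of the 286 8-week-only regions was on chromosome X, which held 718 of the 40073.

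At equal number, vehicle regions with no 8-week counterpart were mostly known from another 8-week list. Of the 6277 at equal number, 99.3% were in the 5-FU list, 69.3% in the knockout 8-week HSC list and 89.6% in at least 1 of the 3 other 8-week lists. The 5 with the highest fold enrichment and no 8-week region within 1 kb lay near Lamp3 (33.3), inside Zhx2 (30.1), and near Kif18a (29.1), Gabrr1 (29.0) and Tmem144 (28.6), and all 5 were in the knockout 8-week HSC list. A further 640 were in the 5-FU list and in no 8-week list, with a median fold enrichment of 13.6, and 11 were in no other list. By −log10 p the 640 were led by regions inside Coro2b (17.2 in vehicle and 18.1 in 5-FU HSCs), Csmd2 (25.5 and 18.2) and Phkb (22.3 and 10.2), named after their values were seen. Of all 41506 vehicle-only regions of the full lists, 26.7% were in the knockout HSC list and 55.2% in at least 1 other 8-week list. In no other list were 19.8% of the 41506. Vehicle regions shared with the 8-week list were in the knockout HSC list in 90.9% and in at least 1 other 8-week list in 97.9%. Of the 286 8-week-only regions, 44.1% were in the knockout HSC list, 65.4% in the wild-type HPC list and 33.2% in the 5-FU list. In no other list were 54 of the 286.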

How the data were processed

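ATAC-seq peak lists of 6 groups were used, with reads aligned by Bowtie2 and peaks called by MACS2 on mm10 (GRCm38), per the submitters' processing notes (versions not given in the sources used here). Labels name total RNA as the molecule, although their protocol describes Tn5 tagmentation. Each deposited list pools the samples of its group. The deposited columns hold, per row, a score, a fold enrichment over background, −log10 p and the distance to the summit. The score was not used. Rows of a list that overlapped were merged into regions (Python 3.11.15, pandas 2.3.3, numpy 2.4.6), keeping the highest fold and the highest −log10 p. Lists were compared by 1 bp overlap, in full and over the strongest 40073 regions of each by −log10 p. Genes are the 21887 protein-coding genes of RefSeq GRCm38.p6. Each region was given to the nearest gene body within 100 kb, or to gene ends within 1 kb. Of 326 symbols in 15 lists, 2 were not found. Shares have 95% Wilson intervals (scipy 1.17.1). The scripts were tested on simulated lists.

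Named genes are, per direction, the 10 with the largest net count of list-only regions at equal number, those of the 5 highest-fold regions with no other region within 1 kb, 5 with an end region in 1 list only, up to 3 per list, and 10 stem cell genes. The comparison, its members and the gene lists were chosen with earlier results of these data known. Alternatives were other overlap rules, summit windows, weaker regions removed, other numbers of regions, ranking by fold, and gene ends.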

Additional observations from a re-analysis of the deposited data

How the results depend on the processing

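No paired analysis was possible because each group is 1 pooled list, and for the same reason no sample could be left out in turn. The share of vehicle regions absent from the 8-week list was 51.8%. It was 48.1% when any region within 1 kb counted as shared, 53.3% with 200 bp summit windows, 51.0% without the weakest 25% by −log10 p and 50.6% without the weakest 25% by fold. The share of 8-week regions absent from the vehicle list was 0.714%, and was 0.634%, 6.70% and 0.376% under the first 3 of these settings. At equal number the shares were 15.7% for vehicle and 12.7% for 8-week regions. They were 21.7% and 19.3% ranked by fold, 14.6% and 13.4% for the strongest 20000, and 16.8% and 16.5% for the strongest 10000. A 50% overlap, leaving out chromosomes X and Y, and leaving out the strongest 8-week region (added after seeing the data) moved none of these shares beyond its interval. Shared regions had a median width of 786 bp in vehicle and 484 bp in 8-week cells. The vehicle median was 774 bp over 1 to 1 pairs, and with 1 summit in both lists the medians were 564 bp and 392 bp. The share of genes with an end region was 65.3% in vehicle and 51.7% in 8-week cells. It was 55.5% and 41.02% where the region had to cover the end, 62.1% and 48.6% over the promoter windows (added after seeing the data), and 54.4% in vehicle at equal number. The cause of these shifts was not tested.

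Net counts of list-only regions near named genes, vehicle minus 8-week, turned sign for 31 of 90 genes when all regions were used, where nearly all list-only regions are vehicle regions. They became 9 at Tshz2, 12 at Maml2, 10 at Chst11, 7 at Zfp469, 14 at Agap1, 10 at Hes1, 11 at Ank2, 10 at Cradd, 4 at Dlgap2, 7 at Dysf, 7 at Zhx2, 1 at Gm40514, 17 at Nedd4l, 19 at Msi2, 13 at Erg, 1 at Nr4a1, 6 at Cd2, 5 at Irf8, 1 at Irf1, 5 at Traf1, 10 at Ier5, 7 at Jun, 6 at Ier3, 2 at Mki67, 4 at Ccnd1, 4 at Marco, 7 at Gata3, 3 at Pecam1, 9 at Ywhaz, 15 at Hlf and 16 at Runx1. Ranking by fold turned 6, to 1 at Ank2, 1 at Zhx2, 1 at Nedd4l, -1 at Notch2, -1 at Actb and -2 at Gata2. Giving regions to gene ends turned none of the 90.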

Other observations

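Chromosome X held 2.19% of the vehicle regions (interval 2.09% to 2.29%) and 1.79% of the 8-week regions (interval 1.67% to 1.93%). The other lists had 2.17% (5-FU HSCs), 1.85% (knockout HSCs), 1.70% (knockout HPCs) and 1.78% (wild-type HPCs). At equal number the shares were 1.93% in vehicle (interval 1.804% to 2.07%) and 1.79% in 8-week HSCs.

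Of the 6277 vehicle-only regions at equal number, 2.34% were on chromosome X (interval 2.00% to 2.75%), against 1.43% of the 5108 8-week-only regions (interval 1.14% to 1.79%). The part of the sex of the mice was not tested.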
